A study of Mus musculus with 23 samples.

Results

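The small nucleolar RNA (snoRNA) host genes Gas5, Snhg1, Snhg3, Snhg5, Snhg6, Snhg8, Snhg12, Snhg15 and Snhg17 were examined in iCLIP2 data for CTCF, the zinc finger protein that anchors chromatin loops. These are 9 of 55413 annotated mouse genes, and 13608 genes held at least 1 site in any list. The genes were taken by name, and their sites were all called nucleotides on the strand of each gene within its GENCODE body on mm10. Over the 6 deposited site lists they held 385 sites in ESC WT, 184 with ΔZF1 and 145 without UV (noXL), and 237, 130 and 92 in the matching NPC lists, which are given in the same order (WT, ΔZF1, noXL) throughout.

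A snoRNA host gene is a transcription unit whose introns carry snoRNAs, while its spliced exons often encode no protein. After splicing, the intron is debranched and trimmed by exonucleases until the proteins bound to the snoRNA stop them, so the mature snoRNA has defined 5′ and 3′ ends. Box C/D snoRNAs, with box C close to the 5′ end, guide 2′-O-methylation of ribosomal RNA, and box H/ACA snoRNAs, which end in an ACA element, guide pseudouridylation. Host RNAs commonly start with a pyrimidine tract, as do the mRNAs of ribosomal proteins, and spliced Gas5 is known to rise in growth-arrested cells.

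Libraries came from mouse E14 embryonic stem cells (ESCs) and from neural progenitor cells (NPCs), for which the same lines were differentiated for 2 days. All of them carried a CTCF-AID2 degron on the endogenous protein and a doxycycline-inducible Flag-tagged CTCF rescue, either WT or ΔZF1, which lacks the RNA binding region of zinc finger 1. All were treated for 24 hours with 1 µM 5-Ph-IAA, which triggers degradation of the endogenous CTCF, and 1 µg/mL doxycycline, after which nuclear RNA bound to the Flag-tagged protein was recovered. The groups were ESC WT (4 libraries), ESC ΔZF1 (4), NPC WT (3) and NPC ΔZF1 (4), all irradiated with 400 mJ/cm2 at 254 nm, and ESC noXL (4) and NPC noXL (4), which were not irradiated and came from the WT rescue line. The ΔZF1 line had no unirradiated control of its own.

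The authors merged the libraries of a group before calling sites, so each group is 1 list with no replicate error, and no test was possible. Intervals are 95% Wilson intervals or are derived from them; they cover counting error only, and neighbouring sites in a cluster are not independent. Read depth is unknown, and the lists ranged from 107227 sites in NPC noXL to 451137 in ESC WT, of which 94.0% to 96.7% lay in genes. All 5 stem cell markers had more sites in ESC WT than in NPC WT, such as Esrrb, a stem cell transcription factor, with 460 and 0. Of 5 neural progenitor markers, Nes, an intermediate filament gene, had 2 and 28, whereas Sox1, Pax6, Hes5 and Zic1 had 0 in both lists.

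Sites in the host genes fell into 2 kinds, and the first was a tight cluster at the 5′ end of nearly every snoRNA. Of the 31 snoRNAs annotated inside the 9 genes, 29 had a called nucleotide within 8 nt of the annotated 5′ end in at least 1 list, and 27 had one in all 6 lists, the unirradiated ones included. The 8-nt window was chosen after the positions had been seen. These windows made up 531 nt, or 1.71% of the 31106 nt of the 9 genes, and held 79 sites in ESC WT, 70 with ΔZF1 and 54 without UV, and 72, 44 and 37 in the matching NPC lists. The 356 calls lay on 81 different nucleotides. As a share of all host gene sites they were 20.5% (16.8 to 24.8) in ESC WT, 38.0% (31.3 to 45.2) with ΔZF1 and 37.2% (29.8 to 45.3) without UV, and 30.4% (24.9 to 36.5), 33.8% (26.3 to 42.3) and 40.2% (30.8 to 50.4) in the matching NPC lists. The share was thus lower in ESC WT than in ESC noXL by more than counting error (difference -16.7 points, -25.6 to -8.12), whereas for NPC WT and NPC noXL the interval of the difference, -9.84 points (-21.4 to 1.41), includes 0. The share differed by 0.80 points (-9.71 to 11.2) between ESC ΔZF1 and ESC noXL.

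Gas5 (chr1:161034422-161038539, plus strand) held 9 of the snoRNAs, Snhg1 (chr19:8723475-8726443, plus) 8, Snhg12 (chr4:132308623-132311024, plus) 4 and Snhg17 (chr2:158353700-158361580, minus) 3. Snhg3 (chr4:132348014-132353686, minus) and Snhg5 (chr9:88521050-88522929, minus) held 2 each. Snhg6 (chr1:9941959-9944118, minus), Snhg8 (chr3:123507552-123508404, minus) and Snhg15 (chr11:6525591-6528760, minus) held 1 each.

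The following windows show the cluster, with 6 nt before and 30 nt from the annotated 5′ end of 7 snoRNAs that carry it and of Snord50a, which does not. Capitals mark every nucleotide called in any of the 6 lists. They are mm10 sequences in RNA orientation with T for uridine, and they were chosen after the sites had been seen to show both snoRNA classes and several hosts.
Snord80 (Gas5, chr1:161037595-161037630, plus strand): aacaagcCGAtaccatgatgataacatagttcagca
Gm25789 (Gas5, chr1:161038302-161038337, plus strand): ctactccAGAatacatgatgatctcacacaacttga
Gm24453 (Snhg1, chr19:8724862-8724897, plus strand): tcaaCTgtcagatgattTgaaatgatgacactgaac
Gm23246 (Snhg1, chr19:8725588-8725623, plus strand): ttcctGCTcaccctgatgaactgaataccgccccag
Snord87 (Snhg6, chr1:9942520-9942555, minus strand): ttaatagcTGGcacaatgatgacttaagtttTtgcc
Snora24 (Snhg8, chr3:123508037-123508072, minus strand): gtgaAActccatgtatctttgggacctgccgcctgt
Snora61 (Snhg12, chr4:132310234-132310269, plus strand): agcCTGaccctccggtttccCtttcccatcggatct
Snord50a (Snhg5, chr9:88521571-88521606, minus strand): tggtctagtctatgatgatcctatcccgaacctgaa
In each cluster the called nucleotides formed 1 short run of 2 to 3 letters, just before the annotated first nucleotide, which is the seventh letter of each window, across it as in Gm23246, or a few letters after it. Single calls further inside were seen in Gm24453, Snord87 and Snora61.

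Counting the first annotated nucleotide as 1 and the nucleotide before it as -1, the cluster ran from -4 to 7 in ESC WT, ESC ΔZF1 and ESC noXL, from -4 to 8 in NPC WT, from -3 to 7 in NPC ΔZF1 and from -3 to 6 in NPC noXL. Positions -2 and -1 held 32 of 79 sites in ESC WT, 30 of 70 with ΔZF1 and 27 of 54 without UV, and 32 of 72, 21 of 44 and 15 of 37 in the matching NPC lists. The study places a call on the nucleotide upstream of the first base of the read, so a read that begins at nucleotide 1 gives a call at -1. In 27 of the 29 snoRNAs with a cluster the highest scoring nucleotide of the cluster moved by no more than 1 nt between the lists that had one. The letters TGATGA of box C were found on the RNA strand within the first 25 nt of 17 of the 31 snoRNAs (54.8%, against 21.8% of 1507 annotated snoRNAs). In the 15 of them that had a cluster in ESC WT, box C began a median of 7.0 nt downstream of the highest scoring site, with a range of 6 to 17, and the median was 7.0 nt in each of the other 5 lists too. The letters CTGA stood in the last 15 nt of 21 of the 31 (67.7%, against 31.4% of all snoRNAs), and ACA in the last 10 nt of 10 (32.3%, against 47.4%). The cluster was present in both classes, as the box H/ACA snoRNAs Snora24, Snora61 and Snora9 had it in all 6 lists.

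**Figure D1:**
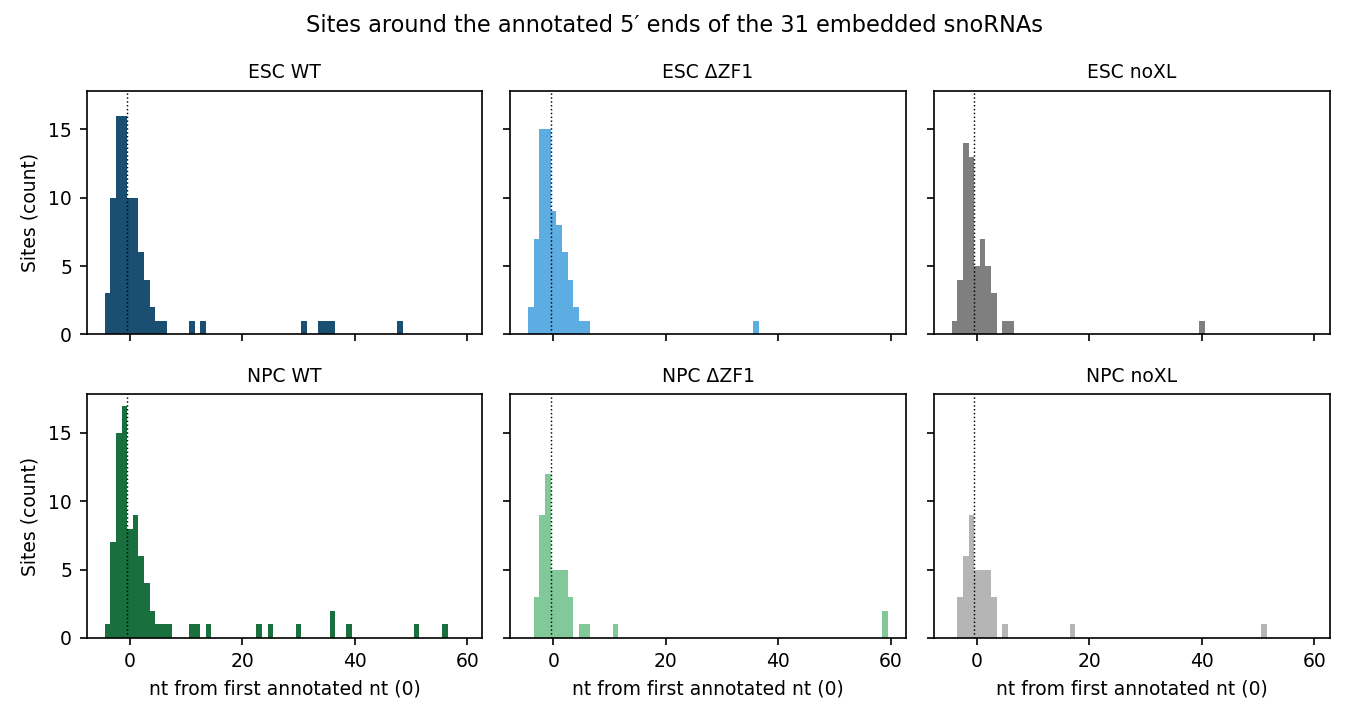
Number of called sites at each distance from the first annotated nucleotide (0, dotted line just before it) of the 31 snoRNAs inside the 9 host genes, 1 panel per list. Every list, irradiated or not, has its peak of sites within a few nucleotides of the 5′ end, and the sites further inside are mostly in ESC WT and NPC WT.

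The best site of every host but Snhg5 lay in such a cluster in all 6 lists, except that Snhg1 in NPC noXL and Snhg3 in NPC ΔZF1 had theirs inside a snoRNA. The deposited PureCLIP score is higher where the call is better supported, and it reached 708.4 at most in all 6 lists. Its median over a whole list was 2.55 in ESC WT, 2.72 with ΔZF1 and 4.43 without UV, and 2.41, 3.93 and 3.82 in the matching NPC lists. Scores were not scaled between lists, so their order between lists is not a property of the sites alone. The median score of cluster sites was 285 in ESC WT, 332 with ΔZF1 and 200 without UV, and 169, 147 and 193 in the matching NPC lists. In exons the medians were 8.25, 6.41, 7.82, 4.11, 4.46 and 4.50 in the same order, and in introns 2.99, 2.56, 4.85, 2.13, 3.77 and 3.60. Between 77.8% (NPC WT) and 93.7% (ESC WT) of the cluster sites were in the top 1% of their list by score. The host gene sites at the maximum score, 7 in ESC WT, 12 with ΔZF1 and 2 without UV, were all in the clusters, and no host gene site reached it in the 3 NPC lists.

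**Figure D2:**
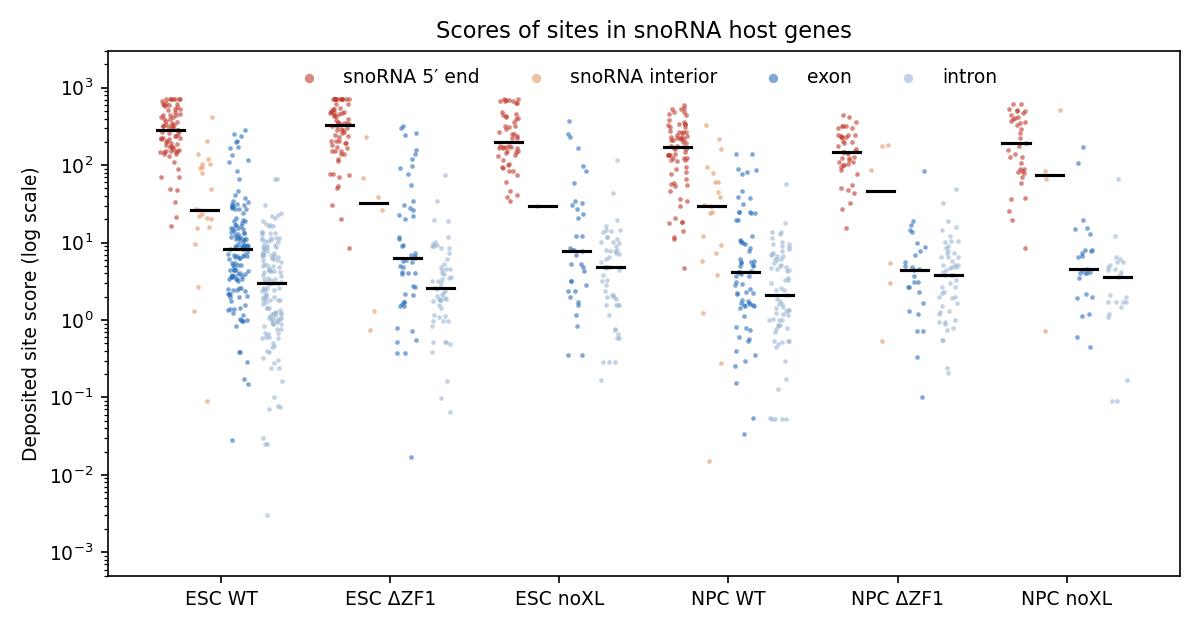
Deposited score (log axis) of every site in the 9 host genes, by list and region; black bars are medians. Sites at snoRNA 5′ ends lie highest in all 6 lists, with medians of 147 to 332, and exon and intron medians stay under 10.

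The same 5′ end cluster was present in snoRNAs of other genes. Of 623 snoRNAs inside other genes and outside coding exons, 206 (33.1%) had a cluster site in ESC WT and 192 (30.8%) in ESC noXL, against 29 of 31 in the 9 hosts in both lists. Among all sites at or inside snoRNAs, the 5′ end held 78.2% (69.2 to 85.2) in the 9 hosts and 65.6% in the others in ESC WT, and 98.2% (90.4 to 99.7) and 94.6% in ESC noXL. The share of uridine among the end sites of the other snoRNAs was 30.3% to 34.8% over the 6 lists. Whether the other snoRNAs without a site are expressed in these cells was not tested.

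Recurrence of single nucleotides followed the same division. Over the 6 lists 753 different nucleotides were called in the 9 genes, of which 604 were in 1 list only and 37 in all 6. Of those 37, 34 were at a snoRNA 5′ end, 2 were at a host transcript start, and 1 was the G at nucleotide 1045 of Snhg12, in an intron outside any annotated snoRNA. That Snhg12 nucleotide scored 67.22 in ESC WT, 75.51 with ΔZF1 and 118.0 without UV, and 57.81, 49.08 and 66.06 in the matching NPC lists, and it was the best site of Snhg12 outside the clusters in every list.

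Host transcript starts had similar clusters. In 6 of the 9 genes, sites lay within 3 nt of an annotated start, and the nucleotide called in most lists was 2 nt before the start in each of the 6. The windows below run from 12 nt before to 24 nt from that start, which is the RefSeq start for Gas5, Snhg1, Snhg8 and Snhg17 and a GENCODE start for Snhg3 and Snhg5. Capitals mark nucleotides called in any list, and the starts are shown because the same nucleotides return with and without UV.
Gas5 (chr1:161035154-161035189, plus strand): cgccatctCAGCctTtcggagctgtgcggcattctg
Snhg1 (chr19:8723475-8723510, plus strand): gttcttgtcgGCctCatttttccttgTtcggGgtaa
Snhg3 (chr4:132353610-132353645, minus strand): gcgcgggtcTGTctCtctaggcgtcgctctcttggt
Snhg5 (chr9:88522865-88522900, minus strand): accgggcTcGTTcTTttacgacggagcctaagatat
Snhg8 (chr3:123508313-123508348, minus strand): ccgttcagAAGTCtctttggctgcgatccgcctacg
Snhg17 (chr2:158361499-158361534, minus strand): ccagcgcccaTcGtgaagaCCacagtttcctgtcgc
The letters after the main site were C or T for 6 nt in Gas5, 4 in Snhg1, 7 in Snhg3, 6 in Snhg5 and 7 in Snhg8, but for only 1 nt in Snhg17.

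The best start site of Gas5 scored 284.5 in ESC WT, 323.7 with ΔZF1 and 368.3 without UV, and 141.1, 84.7 and 173.7 in the matching NPC lists. The best start site of Snhg3 scored 253.5, 298.0 and 253.2 in the 3 ESC lists and 88.29, 19.24 and 19.79 in the 3 NPC lists, in the order WT, ΔZF1, noXL. In ESCs the unscaled score of the Gas5 start was highest without UV, and that of the Snhg3 start was alike in WT and noXL. At its main start Snhg5 had 5 sites in ESC WT, 2 with ΔZF1 and 1 without UV, and 3, 0 and 0 in the matching NPC lists, and at 84.98, 92.18 and 85.0 the start held its best site in the 3 ESC lists. Snhg17 scored 4.15 to 13.1 at its main start in 5 lists and had no site there in NPC ΔZF1. No exon site of Snhg6, Snhg12 or Snhg15 lay within 3 nt of an annotated start. Counting every annotated start of the 9 genes, sites near starts numbered 25 in ESC WT, 17 with ΔZF1 and 10 without UV, and 18, 3 and 8 in the matching NPC lists.

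The second kind of site, away from these 5′ ends, differed between the WT and the unirradiated lists in number and in base. UV crosslinks proteins to uridine most readily. At snoRNA 5′ ends the uridine share was 34.2% (24.7 to 45.1) in ESC WT, 32.9% (23.0 to 44.5) with ΔZF1 and 33.3% (22.2 to 46.6) without UV, and 37.5% (27.2 to 49.0), 34.1% (21.9 to 48.9) and 32.4% (19.6 to 48.5) in the matching NPC lists. The 6 intervals overlapped, and the difference of ESC WT from ESC noXL was 0.84 points (-15.5 to 16.4). Elsewhere in the genes it was 65.4% (59.9 to 70.5) in ESC WT and 29.7% (21.3 to 39.7) in ESC noXL, and 64.8% (57.3 to 71.7) in NPC WT and 27.3% (17.3 to 40.2) in NPC noXL. The differences of 35.7 points (24.2 to 45.5) in ESCs and 37.6 points (22.6 to 49.7) in NPCs were larger than counting error.

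In the ΔZF1 lists the uridine share outside the snoRNA 5′ ends was 57 of 114 (41.0% to 59.0%) in ESCs and 68.6% (58.2 to 77.4) in NPCs. ESC WT was above ESC ΔZF1 by 15.4 points (4.79 to 25.7), and NPC WT differed from NPC ΔZF1 by -3.76 points (-15.4 to 8.73). Over all genic sites the share was 60.6% in ESC WT, 49.2% with ΔZF1 and 28.3% without UV, and 64.6%, 59.0% and 27.9% in the matching NPC lists. With start sites also left out, the nucleotide just upstream of the site was uridine in 56.2% of sites in ESC WT and 27.2% in ESC noXL, and in 59.9% and 29.8% in NPC WT and NPC noXL.

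Of the 9 genes, 8 had a higher uridine share over the 4 irradiated lists than over the 2 unirradiated ones outside the snoRNA 5′ ends. Both cell types, and WT and ΔZF1, were summed here. A nucleotide called in several lists was counted in each, so the intervals of these sums are too narrow. The share was 71.4% of 140 sites against 26.7% of 30 in Snhg3, 56.9% of 181 against 22.9% of 48 in Snhg17, and 75.0% of 60 against 33.3% of 15 in Snhg6. In these 3 genes the intervals with and without UV did not overlap, whereas they overlapped in Gas5, Snhg1, Snhg12 and Snhg15. Snhg8 had 44.4% of 27 against 2 of 4, which its 4 unirradiated sites cannot resolve. Snhg5 had 75.8% of 66 irradiated sites (64.2 to 84.5) against 66.7% of 6 (30.0 to 90.3) without UV, and these intervals overlap.

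The ratio of WT to unirradiated sites was lower at the snoRNA 5′ ends than elsewhere in both cell types, in ESCs by more than counting error, but the ΔZF1 lists had no such gap beyond it. A nucleotide counts once per list, and 29 of 31 snoRNAs had a cluster in both ESC WT and ESC noXL, of at most 4 and 3 sites. The count at 5′ ends thus had little room to rise, and how far this lowers the ratio was not tested. ESC WT over ESC noXL was 1.46 (1.04 to 2.06) at snoRNA 5′ ends and 3.36 (2.66 to 4.25) elsewhere, intervals that did not overlap, and 2.66 (2.19 to 3.21) over all host gene sites. All genes gave 2.85 (2.83 to 2.86). NPC WT over NPC noXL was 1.95 (1.31 to 2.88) at 5′ ends and 3.00 (2.21 to 4.07) elsewhere, intervals that overlapped, and 2.58 (2.03 to 3.28) over all sites, beside 2.26 (2.24 to 2.27) for all genes. ESC ΔZF1 over ESC noXL was 1.30 (0.91 to 1.84) at 5′ ends and 1.25 (0.95 to 1.65) elsewhere, so both intervals include 1. NPC ΔZF1 over NPC noXL was 1.19 (0.77 to 1.83) at 5′ ends and 1.56 (1.12 to 2.19) elsewhere, intervals that overlapped. On uridines alone the ratio of WT to noXL was 5.04 (3.67 to 6.94) in ESCs and 4.96 (3.29 to 7.48) in NPCs. On the other bases it was 1.58 in both, with intervals of 1.23 to 2.03 and 1.16 to 2.16.

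**Figure D3:**
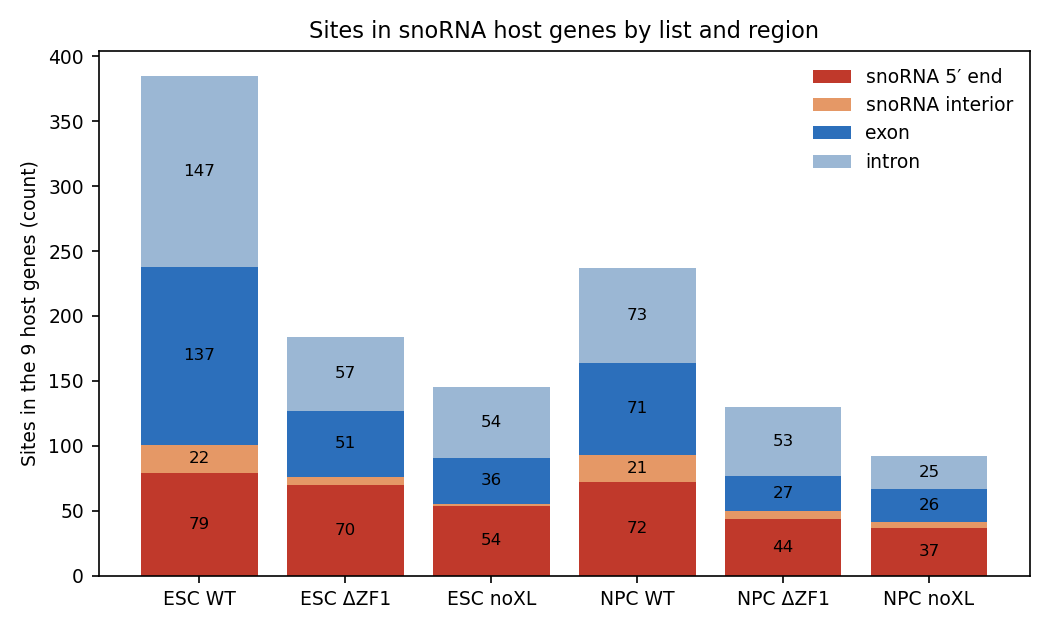
Stacked counts of called sites in the 9 host genes by list, divided into snoRNA 5′ ends (within 8 nt), the rest of the snoRNAs, exons and introns. The snoRNA 5′ end layer runs from 37 to 79 sites, while exons run from 26 to 137 and introns from 25 to 147.

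Sites inside the snoRNAs, beyond 8 nt of the 5′ end, were few and mostly in irradiated lists. There were 22 in ESC WT, 6 with ΔZF1 and 1 without UV, and 21, 6 and 4 in the matching NPC lists. In ESC WT 16 of 22 were uridines and in NPC WT 16 of 21. ESC ΔZF1 over ESC WT was 0.27 (0.11 to 0.65) here, and NPC ΔZF1 over NPC WT was 0.29 (0.12 to 0.69).

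Snora73a and Snora73b, box H/ACA snoRNAs in introns of Snhg3, held 12 of these 22 sites in ESC WT and 8 of 21 in NPC WT. Both are shown whole, with capitals for nucleotides called in any irradiated list, because the same inner positions were called in both.
Snora73b (chr4:132352322-132352526, minus strand): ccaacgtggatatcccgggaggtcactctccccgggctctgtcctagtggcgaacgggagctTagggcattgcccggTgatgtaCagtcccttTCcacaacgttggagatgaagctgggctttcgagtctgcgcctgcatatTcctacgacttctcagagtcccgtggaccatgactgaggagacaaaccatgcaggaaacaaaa
Snora73a (chr4:132352775-132352979, minus strand): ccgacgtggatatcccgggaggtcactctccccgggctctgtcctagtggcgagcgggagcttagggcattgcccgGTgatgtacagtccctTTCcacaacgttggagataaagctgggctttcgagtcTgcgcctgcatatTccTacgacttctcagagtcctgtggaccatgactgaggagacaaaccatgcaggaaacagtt
The copies are each 205 nt and differ at 7 nt (96.6% identity), so a read within a shared stretch could belong to either, and how such reads were placed is not given in the sources used here. Position 94 of Snora73b, a uridine, scored 208.0 and 228.9 in ESCs with WT and ΔZF1 and 215.4 and 182.9 in NPCs, and it was called in neither unirradiated list. Position 94 of Snora73a scored 26.63 in ESC ΔZF1 and 160.2 and 86.33 in NPCs with WT and ΔZF1, and ESC WT had its nearest sites at positions 93 and 95, with scores of 121.2 and 140.2. No site at all was called inside either copy in ESC noXL or NPC noXL, beyond the 5′ end cluster that both had there.

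In Snhg1, the uridine at position 12 of Gm24453, capitalised in the window above, scored 423.1 in ESC WT, 329.2 in NPC WT and 176.0 in NPC ΔZF1. It was not called in ESC ΔZF1 or in either unirradiated list. Position 37 of Snord22, a longer Snhg1 snoRNA, scored 103.2 in ESC WT, 24.34 in NPC WT and 0.75 in ESC ΔZF1, also with no unirradiated call. The unirradiated lists were not empty of strong inner sites, since position 18 of Gm22680 in Snhg1 scored 518.2 in NPC noXL and was in no other list.

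Snhg5 stood apart in its snoRNAs. Snord50a and Snord50b, its only 2 and both box C/D snoRNAs by their TGATGA letters at nucleotide 7, were the 2 of 31 without a 5′ end cluster in any list. They differ from each other at 1 of 72 nt, and each sequence was also found letter for letter in 1 further annotated snoRNA, which was so for no other snoRNA of the 9 hosts. Whether reads of repeated copies were left out upstream was not tested. Sites inside them were scattered, with 1 in ESC WT, 0 with ΔZF1 and 1 without UV, and 1, 2 and 0 in the matching NPC lists.

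Without such clusters, Snhg5 had 36 sites in ESC WT, 8 with ΔZF1 and 3 without UV, and 15, 7 and 3 in the matching NPC lists. Exons held 30, 7, 2, 13, 5 and 3 of them, and its 21.8 exon sites per kb in ESC WT was the highest exon density of the 9 genes. The uridine at nucleotide 617 and the adenine at nucleotide 771, both in exons, were called in all 4 irradiated lists and in neither unirradiated list. They are shown with 12 nt on each side, with capitals for irradiated calls.
Snhg5 nucleotide 617 (chr9:88522301-88522325, minus strand): aacatgaccgtTTtaaagggtgtgt
Snhg5 nucleotide 771 (chr9:88522147-88522171, minus strand): TgttgtgaatgcAtggtgtacaaat
Over all 9 genes 5 nucleotides had that pattern. The other 3 were position 94 of Snora73b and 1 nucleotide each in the 5′ end clusters of Snhg1 and Snhg17, whose neighbours were called without UV.

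Snhg8, which carries Snora24, was the other mainly exonic host, with 16 sites in ESC WT, 8 with ΔZF1 and 5 without UV, and 8, 2 and 2 in the matching NPC lists. Its exons held 13, 5, 3, 5, 1 and 1 of these, or 21.5 per kb in ESC WT. Exons make up most of the length of both genes, 1376 of 1880 nt in Snhg5 and 604 of 853 nt in Snhg8. The introns of Snhg8 had 3 sites in ESC WT, or 25.2 per kb, and 1 of these lay outside the 5′ end cluster. Its best site in every list was the A 1 nt before Snora24, at scores of 80.34 to 207.0.

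Gas5, with 9 snoRNAs, was at the other extreme. It had 35 sites in ESC WT, 28 with ΔZF1 and 22 without UV, and 42, 17 and 19 in the matching NPC lists, and 26, 23, 18, 23, 16 and 15 of them lay at snoRNA 5′ ends. Outside the snoRNA ends and the start site, 5 remained in ESC WT, 2 with ΔZF1 and 1 without UV, and 15, 0 and 2 in the matching NPC lists. The 0 of NPC ΔZF1 allows a count of up to 3. Most Gas5 calls in every list were therefore at RNA 5′ ends, and NPC WT had the most calls elsewhere.

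Snhg1, with 8 snoRNAs, was built the same way, with 38 sites in ESC WT, 26 with ΔZF1 and 19 without UV, and 31, 16 and 13 in the matching NPC lists. The 5′ ends held 24, 21, 17, 23, 13 and 8 of them. Outside these and the start, 12, 2, 1, 6, 3 and 3 sites were left. Snhg12, with 4 snoRNAs, had 26, 12, 11, 21, 9 and 9 sites, of which 9, 8, 6, 7, 5 and 5 were at snoRNA 5′ ends. Snora61 held its best site in all 6 lists, with scores of 449.3 to 708.4. Snora16a, another snoRNA of Snhg12, had 3 sites at its 5′ end and 2 further inside in ESC WT.

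The long introns of Snhg17, Snhg15 and Snhg3 carried most of the intron sites. Snhg17 had the most sites of the 9, with 85 in ESC WT, 45 with ΔZF1 and 36 without UV, and 43, 33 and 21 in the matching NPC lists, of which 46, 25, 23, 22, 21 and 11 were intronic beyond the clusters. Snhg3 had 69, 29, 21, 34, 26 and 13 sites in the same order. The protein-coding gene Rcc1 lies on the same strand across 91.7% of the Snhg3 sites, so its intron sites cannot be assigned to Snhg3 alone. Without sites in another gene, and outside the snoRNA 5′ ends, the ratio of host gene sites was 3.29 (2.54 to 4.26) for ESC WT over ESC noXL and 3.04 (2.19 to 4.24) for NPC WT over NPC noXL. Snhg15 had 45, 19, 15, 25, 12 and 7 sites, with 31, 9, 8, 15, 7 and 4 in introns beyond the clusters.

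Snhg6, the host of Snord87, had 35 sites in ESC WT, 9 with ΔZF1 and 13 without UV, and 18, 8 and 5 in the matching NPC lists. Its best site was the same G of the Snord87 cluster in all 6 lists, at 414.1, 609.1, 463.5, 214.1, 94.12 and 373.4. ESC ΔZF1 thus had fewer sites than ESC noXL over the gene while its cluster site scored highest of the 6.

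By region as annotated, with snoRNA bodies first, exons held 35.6% of host gene sites (30.97 to 40.5) in ESC WT, 27.7% (21.8 to 34.6) with ΔZF1 and 24.8% (18.5 to 32.4) without UV, and 30.0% (24.5 to 36.1), 20.8% (14.7 to 28.5) and 28.3% (20.1 to 38.2) in the matching NPC lists. SnoRNA bodies held 14.5%, 20.1%, 15.9%, 22.4%, 20.0% and 25.0%. Exons here are those of isoforms that do not run through a snoRNA. With the exons of all isoforms the shares were 61.3%, 60.9% and 62.1% in the 3 ESC lists, so the order of WT and noXL depended on the annotation, and 58.2%, 56.9% and 58.7% in the 3 NPC lists. Per kb in ESC WT the exons had 14.8 sites, introns 10.2 and snoRNA bodies 18.4, and the 5′ end windows 149. Introns and snoRNA bodies as counted here include the cluster sites of those windows. Without the windows, introns had 7.93 sites per kb and the rest of the snoRNAs 7.98, both below the exons.

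For each gene, the log2 ratio of sites between lists was taken after adding 1 to each count and dividing by the ratio of all genic sites, wherever the pair of lists had 20 sites or more in the gene; values of at least 1 or at most -1 counted as past the limits. For ESC WT over ESC noXL, 1 of 9 hosts was above 1 and 0 were below -1, against 8.12% and 6.60% of 6208 genes. The host above was Snhg5 at 1.70 (0.46 to 3.69), which had 36 and 3 sites and so met the minimum through ESC WT, and Gas5 was the lowest at -0.86 (-1.60 to -0.08). For NPC WT over NPC noXL, 0 of the 7 hosts with enough sites passed either limit, against 10.5% and 6.51% of 4765 genes, and the median host was at 0.02, with 0.03 over all genes. Gas5 was at -0.07 (-0.80 to 0.74) there, and the lowest of the 7 was Snhg17 at -0.17 (-0.89 to 0.60).

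ESC ΔZF1 had fewer sites than ESC WT in each of the 9 hosts, as over all genes. The summed ratio was 0.48 (0.40 to 0.57) for the hosts and 0.51 (0.50 to 0.51) for all genes. It was 0.89 (0.64 to 1.22) at snoRNA 5′ ends and 0.37 (0.30 to 0.46) elsewhere, intervals that did not overlap. After scaling, 0 of 9 hosts were above 1 and 1 was below -1, against 6.84% and 5.45% of 6518 genes. The host below was Snhg5 at -1.06 (-2.27 to -0.11), with 8 and 36 sites, followed by Snhg6 at -0.87 (-2.02 to 0.05), with 9 and 35. Both met the minimum through ESC WT, the list where they were high. Gas5 was highest at 0.67 (-0.05 to 1.37). The same ESC WT counts enter the ratios to ESC noXL, so the ranks in the 2 comparisons are not independent.

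NPC ΔZF1 also had fewer sites than NPC WT in each host, with a summed ratio of 0.55 (0.44 to 0.68), beside 0.67 (0.66 to 0.67) for all genes. It was 0.61 (0.42 to 0.89) at snoRNA 5′ ends and 0.52 (0.40 to 0.68) elsewhere, intervals that overlapped. Within exons it was 0.38 (0.25 to 0.59) and in introns 0.73 (0.51 to 1.03), which overlapped too, and the ESC values were 0.37 (0.27 to 0.51) and 0.39 (0.29 to 0.53). With exons of all isoforms the exon sites were 138 in NPC WT and 74 with ΔZF1, close to the ratio over all host sites. Of 8 hosts with enough sites 0 passed a limit, against 5.76% above and 7.36% below of 5274 genes, and the median host was at -0.41. Gas5, the highest host in ESCs, was the lowest of the 8 here at -0.67 (-1.52 to 0.09), and Snhg5, the lowest in ESCs, was at -0.41 (-1.77 to 0.74). Snhg15 lies on chromosome 11, where the median gene was at -0.47 in ESCs and -0.61 in NPCs, and Snhg15 itself was at -0.22 (-1.03 to 0.50) and -0.41 (-1.45 to 0.50).

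Between cell types, NPC WT over ESC WT was 0.62 (0.52 to 0.72) for the hosts and 0.54 (0.53 to 0.54) for all genes. It was 0.91 (0.66 to 1.25) at 5′ ends and 0.54 (0.45 to 0.65) elsewhere, and the intervals just failed to overlap. After scaling, 1 of 9 hosts was above 1 and 0 below -1, against 11.5% and 10.4% of 6730 genes. The host above was Gas5 at 1.16 (0.52 to 1.80), the only host with more sites in NPC WT than in ESC WT. The other lists did not repeat this. Gas5 was at -0.18 (-1.07 to 0.64) for NPC ΔZF1 over ESC ΔZF1, with 17 and 28 sites. It was at 0.36 (-0.52 to 1.23) for NPC noXL over ESC noXL, with 19 and 22. When sites scoring under 3.02 were left out, 0 of 8 hosts passed a limit for NPC WT over ESC WT, against 9.09% above and 10.4% below of 4377 genes. Exons of Gas5 held 10 of the NPC WT sites against 6 for ESC WT. The 42 NPC WT sites of Gas5 also enter its ratio of NPC ΔZF1 to NPC WT, so its places in the 2 comparisons are not independent. More RNA of a host in a cell type and more sites per RNA cannot be told apart here.

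**Figure D4:**
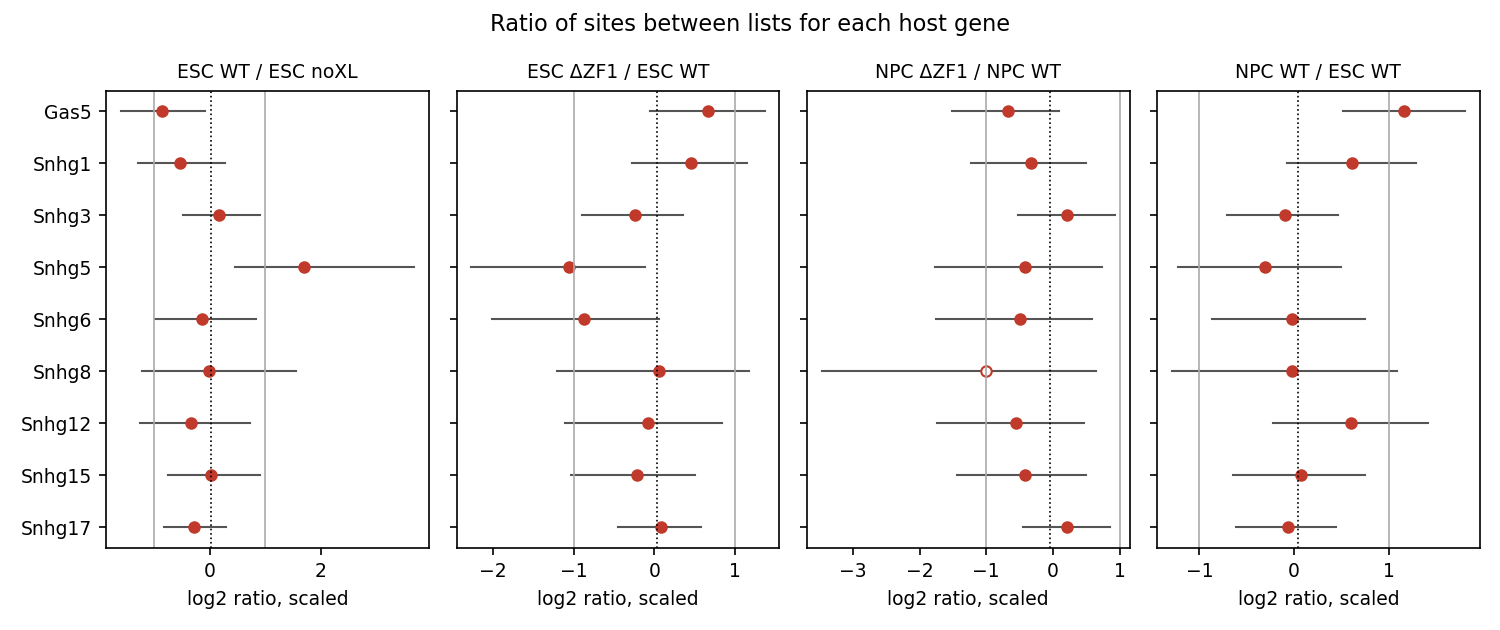
Scaled log2 ratio of sites between 2 lists for each host gene (points; open where both lists together held under 20 sites) with 95% intervals from counts. The dotted line is the median of all genes with enough sites and grey lines mark -1 and 1. Snhg5 lies furthest right for ESC WT over ESC noXL at 1.70. For ESC ΔZF1 over ESC WT it lies furthest left at -1.06, with Gas5 at the opposite end. For NPC ΔZF1 over NPC WT Gas5 is the lowest filled point at -0.67. Panels share the ESC WT or NPC WT counts, so the places of a gene in them are not independent.

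At the 5′ ends, all 70 cluster sites of ESC ΔZF1 had an ESC WT site within 5 nt, as did all 44 of NPC ΔZF1 in NPC WT. So did all 79 of ESC WT in ESC noXL and 66 of 72 of NPC WT in NPC noXL. With the sites shifted by 500 and 1000 nt, the shares were 7.14%, 5.68%, 5.7% and 3.82% in that order. The 8-nt windows were chosen after calls had been seen there, so a match within 5 nt was largely built in. The cluster shares thus do not measure agreement between lists. Elsewhere in the genes, 49.1% (40.1 to 58.2) of ESC ΔZF1 sites had an ESC WT site within 5 nt, against 10.5% after the sites were shifted by 500 and 1000 nt to both sides. For NPC ΔZF1 in NPC WT the share was 16.3% (9.95 to 25.5), against 3.49% shifted. For ESC WT in ESC noXL it was 15.7% (12.04 to 20.2), against 2.70% shifted, and for NPC WT in NPC noXL 12.1% (7.99 to 18.0), against 2.42%. Sites of NPC WT had an ESC WT site within 5 nt in 44.2% (36.9 to 51.9), against 7.88% shifted.

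Beside the hosts, related gene groups were counted in the same way. The 12 genes for snoRNP proteins, such as Fbl (fibrillarin, the methyltransferase of box C/D particles) and Dkc1 (dyskerin, the pseudouridine synthase of box H/ACA particles), had 677 sites in ESC WT and 244 in ESC noXL, a ratio of 2.77 (2.40 to 3.21). None of the 11 with enough sites passed a limit there, against 8.12% above and 6.60% below of all genes. For ESC ΔZF1 over ESC WT 1 of 11 was below -1 (5.45% of all genes). It was Nhp2, another box H/ACA protein, at -1.19, whose 3 and 17 sites met the minimum through ESC WT. The 86 ribosomal protein genes had a ratio of 4.42 (4.10 to 4.77) for ESC WT over ESC noXL and 0.46 (0.43 to 0.49) for ESC ΔZF1 over ESC WT. Of those with enough sites, 23 of 80 were above 1 in the former comparison, against 8.12% of all genes, and 0 of 82 passed a limit in the latter, against 6.84% above and 5.45% below. For NPC ΔZF1 over NPC WT their ratio was 0.415 (0.384 to 0.449), and 16 of 71 were below -1 and 0 above 1, against 7.36% and 5.76% of all genes. The host ratio of 2.66 lay below the ribosomal protein interval, while outside the snoRNA 5′ ends the host interval of 2.66 to 4.25 overlapped it. The 320 other snoRNA host genes had a ratio of 2.90 (2.82 to 2.98) for ESC WT over ESC noXL, with 10 of 189 above 1 and 9 below -1, against 8.12% and 6.60% of all genes. The 6 other Snhg genes had 216 sites in ESC WT and 52 in ESC noXL. Of the 3 with enough sites 1, Snhg20, was above 1 at 1.70, against 8.12% of all genes. Snhg20 had 36 and 3 sites and so met the minimum through ESC WT.

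The genes whose counts over the 6 lists were most like those of the summed hosts, by the Euclidean distance of centred, scaled log2 counts among 6038 genes with at least 50 sites, were Slc39a10 (distance 0.149), Pdpr (0.180), Rala (0.182), Prpsap1 (0.194) and Edem1 (0.195). All 5 are protein-coding. The summed hosts departed from an even scaled profile by -0.11 (ESC ΔZF1) to 0.18 (NPC WT) on the log2 scale.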

How the data were processed

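CTCF iCLIP2 sites were analysed in 23 libraries of 6 groups, grouped by GEO's labels. Per the study's methods, the authors used Flexbar for demultiplexing and trimming, STAR for alignment to mm10 and UMI-tools for removing duplicates, then merged the libraries of a group and called 1-nt crosslink sites with PureCLIP. Versions and the treatment of reads with several alignments are not given in the sources used here. Each deposited list gives a position, strand and PureCLIP score per site, with no read counts, so the depth behind a site is unknown.

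Sites were assigned by strand to genes, exons and snoRNAs of GENCODE on mm10 (GRCm38), whose sequence gave the base, with Python 3.11.15, pandas 2.3.3, numpy 2.4.6 and scipy 1.17.1. Exons were those of isoforms that hold no snoRNA within an exon. Ratios, scaled log2 ratios (pseudocount 1, at least 20 sites), region and uridine shares and sharing within 5 nt were computed per pair of lists, with 95% intervals for counting error only. Scripts were tested on simulated data. Alternatives covered score, base, overlapping genes, scaling, minimum counts, exon definition and distances.

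The members and lists were chosen with earlier results of these data known. The rule for named items took all 9 hosts with their best sites, snoRNAs with at least 5 sites in any list, and the 5 genes of most similar profile; the other snoRNAs, the sequences, the 8-nt snoRNA end window and the 3-nt start window were chosen after the values were seen.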

Additional observations from a re-analysis of the deposited data

How the results depend on the processing

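No paired analysis was possible because each group is 1 site list called on merged libraries. Leaving out a library was thus impossible too, and the spread between libraries and the read depth are unknown; intervals cover counting error only. Among the alternative values 74 stayed within the interval or count limits of the reported one, and 41 moved beyond them; the cause was not tested.

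On uridines only, the ratio of host gene sites was 5.04 for ESC WT to ESC noXL, 4.96 for NPC WT to NPC noXL and 0.352 for ESC ΔZF1 to ESC WT. Without the snoRNA 5′ ends, an alternative chosen after seeing the data, it was 3.36 for ESC WT to ESC noXL and 0.373 for ESC ΔZF1 to ESC WT. The same alternative gave uridine shares of 65.4% in ESC WT, 64.8% in NPC WT and 68.6% in NPC ΔZF1, and shared sites of 49.1% for ESC ΔZF1 near ESC WT, 16.3% for NPC ΔZF1 near NPC WT, 15.7% for ESC WT near ESC noXL and 12.1% for NPC WT near NPC noXL. In exons only, the uridine share of ESC WT was 64.2%.

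With at least 50 sites, 0 of 5 hosts were past the limits for ESC WT to ESC noXL (3.23% of all genes above, 3.23% below) and 0 of 5 for ESC ΔZF1 to ESC WT (3.66% and 3.64%); Snhg5, past them with fewer sites, is not counted there. Leaving out the scaling moves every gene in a comparison by 1 constant, so the hosts keep their order. Then 7 of 9 hosts were above 1 for ESC WT to ESC noXL (82.8% of all genes) and 7 of 7 for NPC WT to NPC noXL (63.5%). Below -1 were 5 of 9 for ESC ΔZF1 to ESC WT (47.1%), 5 of 8 for NPC ΔZF1 to NPC WT (28.4%) and 2 of 9 for NPC WT to ESC WT (41.9%), where Gas5 was at 0.26. With a score of at least 3.02, the median of all lists, 2 of 8 were below -1 for ESC ΔZF1 to ESC WT (264 of 4399 genes) and 0 of 8 past a limit for NPC WT to ESC WT (9.09% above, 10.4% below).

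With exons of all isoforms, retained introns included, the exon share was 61.3% in ESC WT, 60.9% with ΔZF1 and 62.1% without UV, and 58.2%, 56.9% and 58.7% in the matching NPC lists, so ESC WT no longer lay above ESC noXL. With snoRNAs extended by 5 nt, their share was 26.2%, 41.3%, 37.9%, 39.2%, 38.5% and 44.6% in that order. Sites shared at the same nucleotide were 60.3% for ESC ΔZF1 near ESC WT, 19.5% for ESC WT near ESC noXL and 19.8% for NPC WT near NPC noXL. Within 50 nt they were 87.5% for ESC ΔZF1 near ESC WT, 63.1% for NPC ΔZF1 near NPC WT, 54.5% for ESC WT near ESC noXL and 51.5% for NPC WT near NPC noXL.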
